A study of Gallus gallus with 2 samples.

Results

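The genes described here encode growth factors, their receptors and the proteins that carry or restrain them: the FGF, GDNF, IGF and PDGF families, with KIT ligand, the LIF receptor chains, HGF, MET and EGFR. They were chosen by name, as the rows of the count table whose gene name starts with FGF, GFRA, PDGF, IGF, SPRY or SPRED or is one of 13 single symbols. By exact letters 69 rows matched, 2 more matched when case was ignored (Fgf9 and Fgf19), and 4 matched through older names in a RefSeq gene table (bFGF for FGF2, gp130 for IL6ST, c-met for MET and HGF/SF for HGF). This gave 75 rows of 26656. The letters also brought in 4 genes of other function, SPRYD3, SPRYD7, FGFR1OP and FGFR1OP2, which share letters and not a family with Sprouty or the FGF receptors.

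Total RNA was sequenced from chicken cells labelled as spermatogenic stem cells (SSCs), obtained by collagenase and trypsin digestion of testes from embryos at 18.5 days of incubation and cultured in serum-containing medium. The Blank library came from untreated cells, and the shLSD1 library from cells given an LSD1 interference vector by transfection. LSD1 is a demethylase of H3K4me2. There was 1 library for Blank and 1 for shLSD1, which leaves every difference without a replicate check, and the vector, its transfection and the interference cannot be told apart. No sorting step is given for the cells, and in bulk RNA a change in the number of cells of a type and a change in RNA per cell cannot be told apart.

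These families act through receptors on the cell surface. In the mouse testis, Sertoli and peritubular cells secrete GDNF, which binds GFRA1 and signals through the receptor tyrosine kinase RET to keep spermatogonial stem cells from differentiating, and FGF2, LIF and IGF1 support the same cells in culture. KIT ligand acts on the later, differentiating spermatogonia that carry KIT. PDGF and IGF ligands act mainly on the somatic cells of the testis, and Sprouty and SPRED proteins damp the RAS and ERK signal that most of these receptors share.

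The listed counts summed to 8731455 reads for Blank and 8245826 reads for shLSD1. LSD1 itself (KDM1A) was listed at 0 reads in both libraries. No reads were listed under an assembled model that spans it by the rule given below for the members. Models that do not meet that rule were not counted for KDM1A. The interference could therefore not be checked from the listed row or a spanning model, and other models were not examined. By counting error alone, a count of 0 allows up to 0.344 CPM (reads scaled to the listed total of a library) in Blank and 0.364 CPM in shLSD1. This bounds the listed row and not the gene where an assembled model lies over it, since reads of the gene may be listed under the model. Of 16 germ cell genes listed, 13 matched a row and 6 had at least 20 reads with their models. Their summed level was 71.7 CPM in Blank and 72.3 CPM in shLSD1, most of it from ZBTB16, with 219 and 279 reads (log2 ratio 0.43, 0.17 to 0.69), and from SYCP3, with 312 and 250 reads including its model (-0.24, -0.48 to 0.01). DDX4 had 23 and 11 reads, DAZL had 8 and 5, and NANOG had 0 in both. The sums over 8 Sertoli genes were 302 CPM in Blank and 361 CPM in shLSD1. Over 6 Leydig genes the sums were 86.9 and 71.6 CPM, over 5 blood genes 57.0 and 54.5 CPM, and over 7 endothelial genes 22.3 and 26.1 CPM. The sums over 8 peritubular and stromal genes were by far the largest, at 7.22e+03 and 7.68e+03 CPM. Most of this came from the model over COL3A1, a collagen gene, at 5258 and 6075 CPM. The sums are over unlike gene lists and do not give shares of cells. RNA of genes listed for several somatic cell types was thus present. Apart from ZBTB16 and SYCP3, the listed germ cell genes had at most 23 reads in a library. Of the SYCP3 reads, 309 and 250 lay in its model and 3 and 0 in its row. The part of germ cells in the preparation was therefore not established, and the values below are those of the whole preparation.

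Many of these genes have a second entry in the table. The authors assembled gene models of their own from the reads, and for 28 of the 75 members such a model spans at least 50% of the gene on its strand and overlaps no other protein-coding gene on that strand. Of these 28 members, 17 (60.7%) were listed at 0 in both libraries, against 6 (12.8%) of the 47 members with no such model. How reads shared by a gene and a model were counted is not given in the sources used here. The 28 models together held 13002 reads in Blank and 12530 in shLSD1, while the 28 rows named for the genes held 324 and 283. PDGFRB, PDGFRA, FGFR1, LIFR, gp130, SPRY2, IRS1, IGFBP3 and IGFBP5 are among the genes at 0 whose model held at least 20 reads, of which there were 15. A reading of the named rows alone would therefore miss most of the reads of these pathways. Of the 28 models, 25 carry a line of predicted protein domains in the files, and those over PDGF-A, IGF2 and IRS2 carry none. The model over SPRY2 lists the Sprouty domain, that over PDGFB the PDGF domain, and that over EGFR a tyrosine kinase and growth factor receptor domains.

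**Figure D1:**
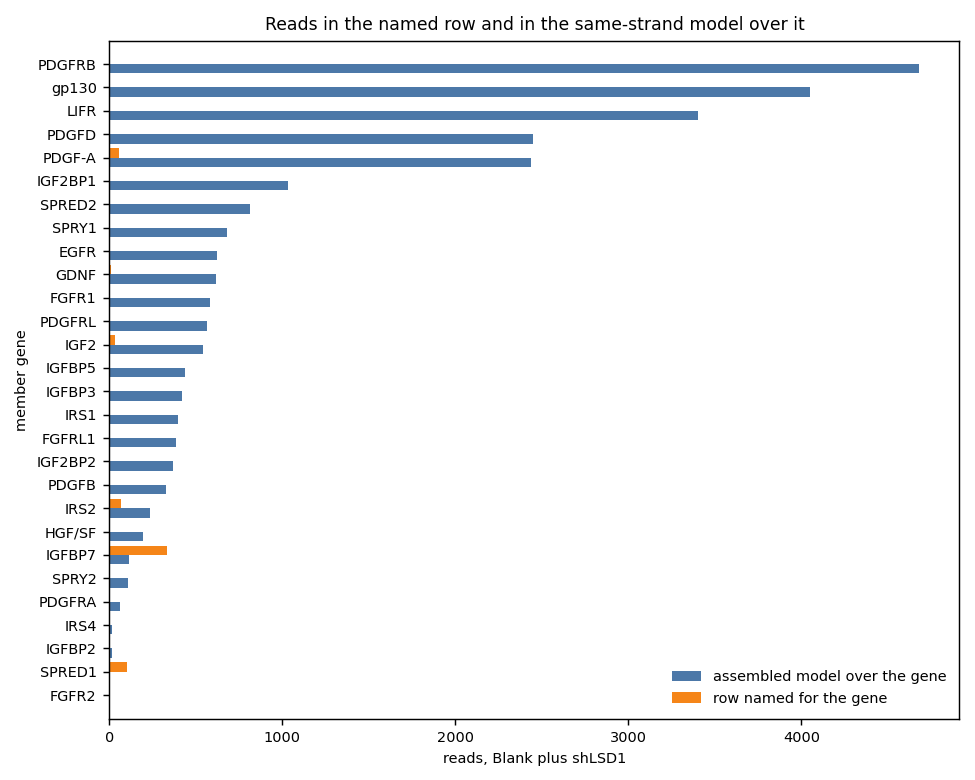
Reads over both libraries (x axis, linear from 0) for the 28 members that an assembled model spans, in the row named for the gene (orange) and in the model (blue). Models over PDGFRB, gp130 and LIFR hold the most reads, while their named rows are at 0. IGFBP7, SPRED1 and FGFR2 have more reads in the named row than in the model.

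Over all members, 27 rows had at least 20 reads over both libraries, 25 had 1 to 19, and 23 had 0. Each count was scaled by its library total and a prior count of 0.5 was added before shLSD1 was divided by Blank on the log2 scale. Its exact Clopper-Pearson 95% interval covers counting error only and compares these 2 libraries, not the treatments. No row of the 27 differed by 2-fold or more. Of the 12081 rows in the table with 20 or more reads, 2.21% were 2-fold or more higher in shLSD1 and 1.82% were lower by as much. No p-value was computed, since there is no replicate. The interval lay above 0 for 8 of the 27 (29.6%), against 12.9% of all rows, and below 0 for 4 (14.8%), against 15.4%. The median log2 ratio of the 27 was 0.01, and that of all rows -0.01. The interval narrows with depth, and the 27 rows had a median of 289 reads against 262 over all rows.

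With the reads of the models added, 47 members reached 20 reads. Of these, 0 were at least 2-fold higher and 1, SPRY2, was at least 2-fold lower. Over 9264 protein-coding genes taken the same way, the shares were 2.08% and 1.53%. The interval lay above 0 for 14 (29.8%), against 13.3% of those genes, and below 0 for 8 (17.0%), against 17.3%. The median log2 ratio was 0.05, against -0.02 over those genes. The 47 members had a median of 480 reads and the protein-coding genes a median of 340, so the members were the more deeply covered. The share below 0 was close to that of other genes, and the share above 0 was larger, a difference that was not tested.

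**Figure D2:**
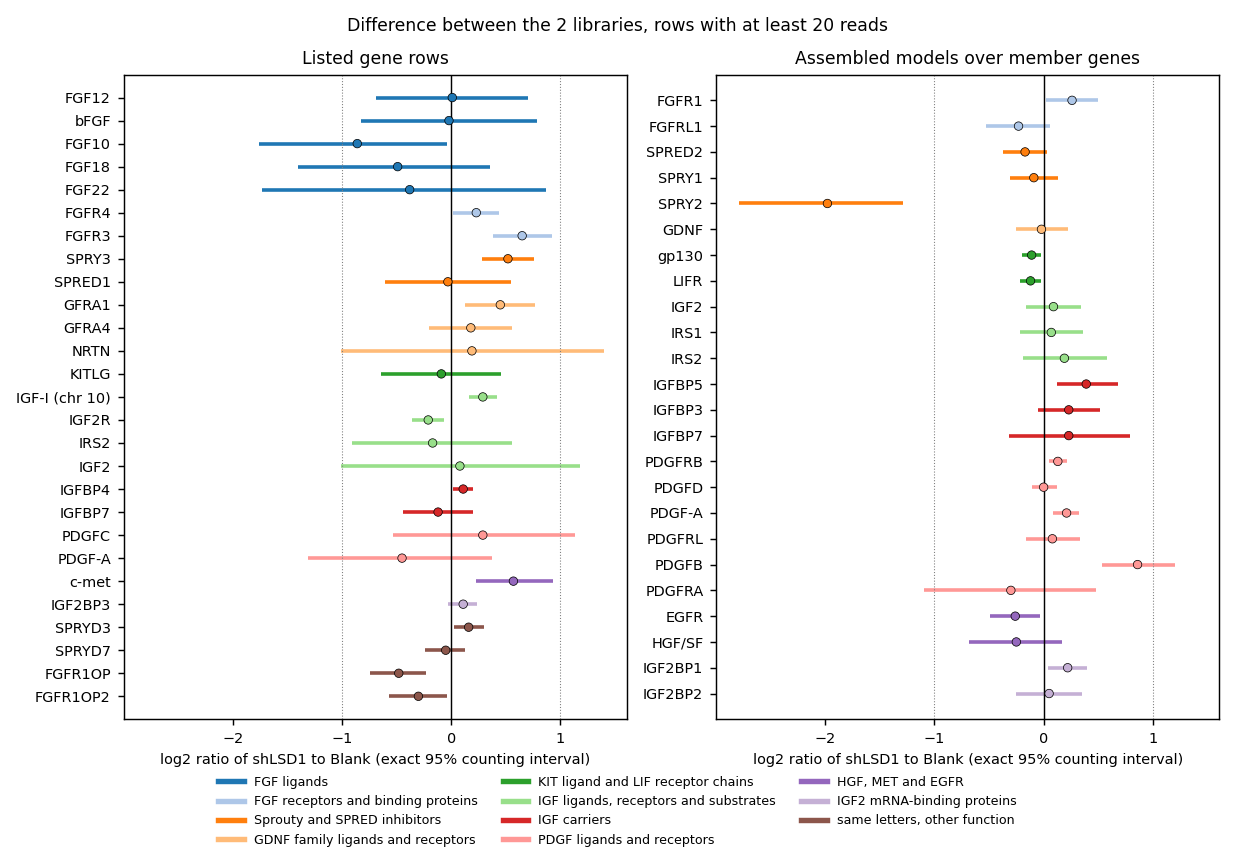
Log2 ratio of shLSD1 to Blank (points) with its exact 95% counting interval (bars), for member rows (left) and assembled models (right) with at least 20 reads, coloured by role. Dotted lines mark 2-fold. The model over SPRY2, at -1.98, is the one point beyond them, and the model over PDGFB, at 0.86, is the highest.

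Sprouty and SPRED genes gave the widest difference among the members. Sprouty proteins are induced by FGF and GDNF signals and inhibit the path from receptor to ERK. The row named SPRY2 (ENSGALG00000016906) is placed by the files, whose genome build is not named, on the plus strand of chromosome 1 between 151896142 and 151897919. It held 0 reads in both libraries. The model over it runs from 151892736 to the same end and is 1808 bases longer in its exons. It had 85 reads in Blank and 20 in shLSD1, or 2.70 and 0.673 FPKM (reads scaled by the length of the model and by library size). This is a 3.94-fold lower level in shLSD1 (log2 ratio -1.98, 95% interval -2.79 to -1.29). Of the 12081 rows with at least 20 reads, 26 (0.215%) had a lower log2 ratio.

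The other Sprouty genes did not follow SPRY2. SPRY3 (ENSGALG00000007448), a single listed row with no model over it, had 255 reads in Blank and 345 in shLSD1 (log2 ratio 0.52, 0.28 to 0.76). By deposited FPKM it was the highest of the family, at 32.6 FPKM in Blank and 46.7 FPKM in shLSD1. Against members read from models this rank is uncertain, since the counting of shared reads is not given. The model over SPRY1 had 361 and 321 reads (log2 ratio -0.09, -0.31 to 0.13), and its named row had 1 and 0. SPRY4 is listed at 2 places on chromosome 13, and both rows were at 0. SPRED1 and SPRED2 bind RAS regulators at the membrane. The SPRED1 row had 54 and 50 reads (log2 ratio -0.03, -0.61 to 0.55). The model over SPRED2 had 442 and 371 reads (-0.17, -0.37 to 0.03). For SPRY1, SPRED1 and SPRED2, then, no difference was detectable at this depth, while SPRY2 and SPRY3 lay on opposite sides of 0.

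Of the FGF receptors, 4 had at least 20 reads with their models: FGFR1, FGFR3, FGFR4 and FGFRL1. The interval lay above 0 for 3 of these 4, where it did for 13.3% of protein-coding genes with their models. Of the 3 intervals, 2 start at 0.02. The 3 receptors, FGFR1, FGFR3 and FGFR4, are tyrosine kinases that differ in which FGFs they bind. FGFR3 (ENSGALG00000015708) had 197 reads in Blank against 292 in shLSD1, a 1.57-fold higher level (log2 ratio 0.65, 0.38 to 0.92). FGFR4 (ENSGALG00000028543) had 361 and 400 reads (log2 ratio 0.23, 0.02 to 0.44). The model over FGFR1 had 272 and 307 reads (log2 ratio 0.26, 0.02 to 0.50). Per length FGFR4 was above FGFR3, at 15.4 FPKM in Blank and 18.1 FPKM in shLSD1 against 3.55 and 5.59 FPKM. The FGFR1 model had 6.05 and 7.24 FPKM. It is 5119 bases long, over a gene of 2924 bases listed at 0. How reads shared by gene and model were counted is not given, so FGFR1 cannot be ranked against FGFR4. FGFR2 had 0 and 2 reads in its row and 0 in the model over it. Since the counting of reads shared by a row and a model is not given, its level cannot be read from these counts. FGFRL1, a receptor without a kinase, was carried by its model with 213 and 171 reads (log2 ratio -0.23, -0.53 to 0.06). The carriers FGFBP1 and FGFBP2, which release FGFs from the matrix, had at most 5 reads in a library.

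The FGF ligands were low. Of 19 ligand rows, 5 had at least 20 reads, and 4 of these had a log2 ratio below 0. Of all 12081 rows with at least 20 reads, 6239 had a log2 ratio below 0. FGF10 (ENSGALG00000014872), a ligand made by mesenchyme, had 37 reads in Blank against 19 in shLSD1, a 1.82-fold lower level (log2 ratio -0.86, -1.76 to -0.04). It was the one ligand whose interval left out 0. FGF18 had 30 and 20 reads (-0.49, -1.40 to 0.36), and FGF22 had 14 and 10 (-0.38, -1.73 to 0.87). FGF12, which belongs to the subgroup that stays inside the cell, had 38 and 36 (0.01, -0.69 to 0.70). For these 3 genes no difference was detectable at this depth.

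FGF2, the FGF most used to maintain germline stem cells in culture, is listed as bFGF and had 29 reads in Blank and 27 in shLSD1. Its log2 ratio was -0.02 (-0.83 to 0.79), so no difference was detectable within those bounds. NUDT6, at 0 reads, and an assembled model with 196 and 199 reads lie on its opposite strand, and whether strand was used in counting is not given in the sources used here. FGF9, a signal of testis formation in the mouse, is listed as Fgf9 and had 4 reads in Blank and 12 in shLSD1. FGF7 had 8 and 2, FGF14 had 7 and 3, FGF16 had 5 and 8, Fgf19 had 8 and 9, and FGF1 had 5 and 4. FGF8 had 0 and 3, FGF23 had 1 and 1, FGF3 had 0 and 1, and FGF4 had 1 and 0. FGF5, FGF6, FGF13 and FGF20 were at 0 in both libraries. These 14 ligands were thus at or near the detection limit, and no direction can be read for any of them.

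The GDNF receptor chain GFRA1 was higher in shLSD1 and the ligand was level. GFRA1 (ENSGALG00000009173, on chromosome 6 between 28152303 and 28288081) had 149 reads in Blank against 192 in shLSD1, a 1.36-fold higher level (log2 ratio 0.45, 0.13 to 0.77). GDNF (ENSGALG00000003716, on chromosome Z between 11585813 and 11602028) had 6 and 3 reads in its own row. The model over it had 319 and 298 reads, or 7.79 and 7.72 FPKM (log2 ratio -0.02, -0.25 to 0.22). For the ligand, then, no difference was detectable. RET, the kinase that GFRA1 brings to GDNF, had 11 reads in Blank and 5 in shLSD1, with an interval of -2.93 to 0.59. In FPKM it was 0.217 and 0.1045, far below GFRA1 at 5.57 and 7.61. The genes of the receptor pair were thus at unlike levels in this preparation.

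Other GDNF family members were lower in level than GFRA1. GFRA4 had 116 and 124 reads (log2 ratio 0.18, -0.20 to 0.56). Neurturin (NRTN), a related ligand that prefers GFRA2, had 13 and 14 reads (0.19, -1.01 to 1.40). GFRA2 had 3 and 3 reads, GFRA3 had 2 and 0, and GFRAL had 0 and 1. Of 8 rows of the family, 4 had at least 20 reads with their models, and of these GFRA1 was the one whose interval left out 0. Among Sertoli markers, the usual source of GDNF, 7 of 8 had at least 20 reads with their models, and the interval lay above 0 for 3 and below 0 for 0. Of the 6 germ cell genes with at least 20 reads, the interval lay above 0 for 1, ZBTB16, and below 0 for 0. Over protein-coding genes with their models, the shares were 13.3% above and 17.3% below. The part of either cell type in the GFRA1 value was not tested.

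KIT ligand, a Sertoli product, had 62 reads in Blank and 55 in shLSD1 (KITLG, ENSGALG00000011206). Its log2 ratio was -0.09 (-0.64 to 0.46), so no difference was detectable. Its receptor KIT, which is not a member and marks germ cells, had 3 and 1 reads. The ligand was therefore measurable where its receptor was at the limit of detection.

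By the reads of their models, the LIF receptor chains were among the most abundant members, although both named rows were at 0. The model over LIFR had 1820 reads in Blank and 1584 in shLSD1 (log2 ratio -0.12, -0.22 to -0.02). The model over gp130, the chain shared by the receptors of the interleukin 6 family, had 2159 and 1893 reads (log2 ratio -0.11, -0.20 to -0.02). Only 25.3% of the span of the gp130 model lies over the gene, against 70.7% for the LIFR model. The levels of the LIFR and gp130 models were 1.09-fold and 1.08-fold lower in shLSD1. With upper-quartile scaling both intervals included 0. SOCS3, an inhibitor of JAK and STAT signals from gp130 that is induced by them, is listed at 0, and the model over it had 1393 reads in Blank and 389 in shLSD1. This is a 3.38-fold lower level (log2 ratio -1.76, -1.92 to -1.59). OSMR, the oncostatin M chain that also pairs with gp130, had 2689 and 1887 reads with its model (log2 ratio -0.43, -0.51 to -0.34). It was named after its values were seen. The receptor chains thus differed far less than SOCS3.

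In the IGF group, a name in the files needs care. The name IGF-I is given to 2 rows. The first (ENSGALG00000012755) lies on chromosome 1, is described in the files as insulin-like growth factor I, and had 1 read in Blank and 4 in shLSD1. The second (ENSGALG00000007039, on chromosome 10 between 16180774 and 16320955) lies next to SYNM and LRRC28, and in RefSeq's assembly GRCg7b the gene next to SYNM and LRRC28 is IGF1R, the IGF1 receptor. No row is named IGF1R in the files. The chromosome 10 row had 928 reads in Blank and 1070 in shLSD1 (log2 ratio 0.29, 0.16 to 0.42). Its level, 23.1 and 28.3 FPKM, therefore stands at the place of the receptor, while the ligand row was at the limit of detection.

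IGF2R, the receptor that sorts lysosomal enzymes and in mammals also binds IGF2, moved the other way from the chromosome 10 row. It had 903 reads in Blank and 735 in shLSD1 (log2 ratio -0.21, -0.36 to -0.07). The ligand IGF2 had 16 and 16 reads in its row and 269 and 270 in the model over it, whose log2 ratio was 0.09 (-0.16 to 0.34). The docking proteins IRS1 and IRS2 carry the signal on from the receptor. The model over IRS1 had 200 and 198 reads (0.07, -0.22 to 0.36), and the IRS2 row had 37 and 31 (-0.17, -0.91 to 0.56). The model over IRS2 had 112 and 121 reads (0.19, -0.19 to 0.58), but only 7.55% of its span lies over the gene. IRS4 had 0 reads in its row and 4 and 9 in its model. No difference was detectable for the ligand or the docking proteins.

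IGFBP4 was the most abundant member per length. The protein binds IGFs and keeps them from the receptor until it is cleaved. IGFBP4 (ENSGALG00000028931, on chromosome 27 between 4442296 and 4446537) had 1918 reads in Blank and 1955 in shLSD1, or 290.6 and 314.2 FPKM (log2 ratio 0.11, 0.02 to 0.20). The next highest member row that belongs to these pathways, SPRY3, lay below 50 FPKM in both libraries. The IGFBP4 row is 751 bases long, and a model that overlaps it on the opposite strand had 2184 and 2294 reads, more than IGFBP4 itself. Since the use of strand in counting is not given, reads of the 2 cannot be told apart with certainty. The model over IGFBP5, a carrier bound by the matrix, had 194 and 241 reads (log2 ratio 0.39, 0.12 to 0.68). That over IGFBP3 had 198 and 220 reads (0.23, -0.05 to 0.52). IGFBP7 had 177 and 154 reads in its row (-0.12, -0.44 to 0.20) and 54 and 60 in the model over it, so the row and the model lay on either side of 0. On its opposite strand lie 3 rows with 491 and 429 reads, so the same limit of strand applies to IGFBP7. IGFBP1, IGFBP2 and IGFALS had at most 2 reads in a row and library.

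The protease of IGFBP4 and 1 of its listed inhibitors, none of them members, lay on opposite sides of 0. PAPPA, which cleaves IGFBP4 and frees the bound IGF, had 60 reads in Blank against 125 in shLSD1, a 2.2-fold higher level (log2 ratio 1.14, 0.69 to 1.61). STC2, which inhibits PAPPA in mammals, had 0 reads in its row and 566 and 301 in the model over it, a 1.77-fold lower level (log2 ratio -0.83, -1.04 to -0.62). STC1, which also inhibits PAPPA in mammals, had 48 and 50 reads with its model (0.14, -0.46 to 0.74), and it was named after its values were seen. IGFBP4 itself differed by 1.08-fold. Protein and cleavage were not measured.

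**Figure D3:**
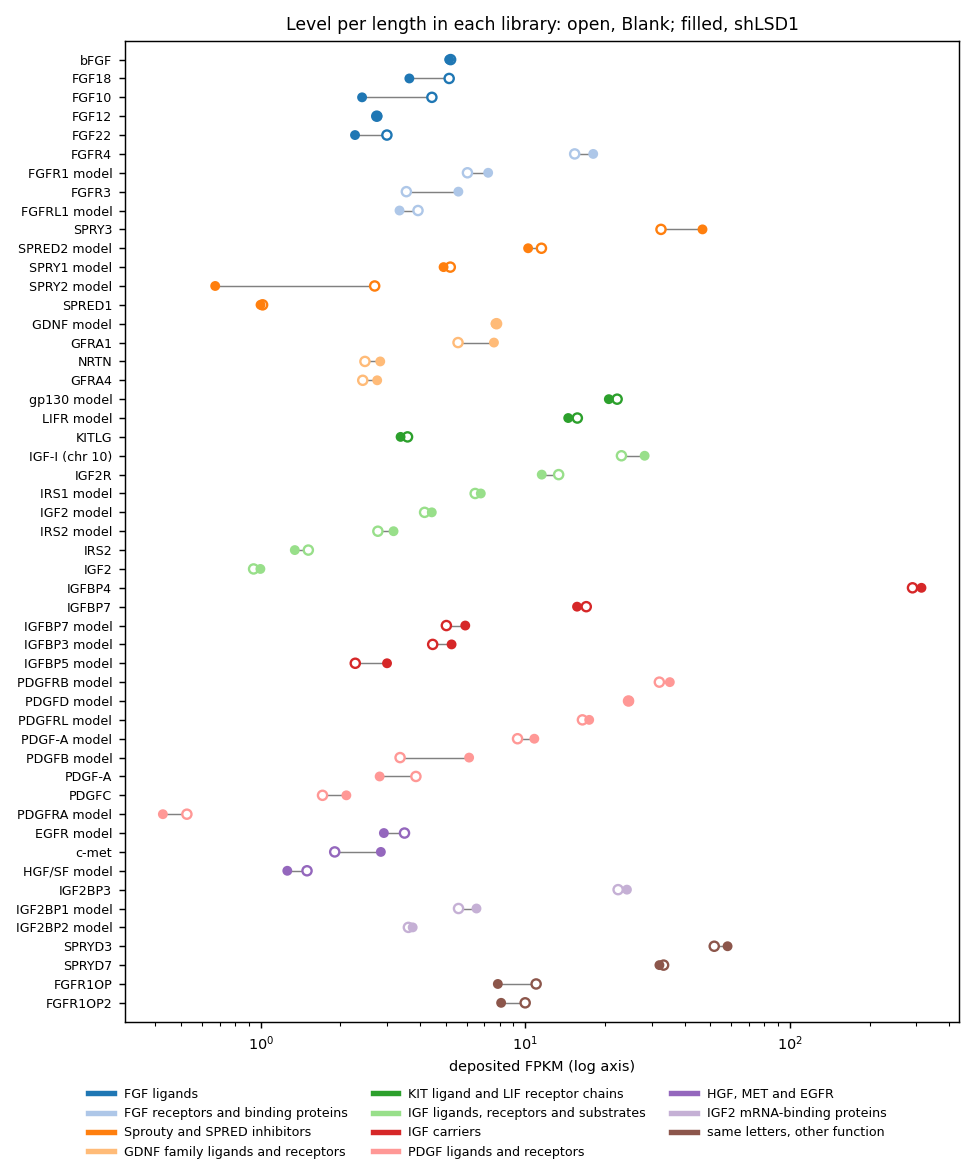
Deposited FPKM (log axis) of each member row and model with at least 20 reads, with Blank as an open and shLSD1 as a filled circle, grouped and coloured by role. IGFBP4, at 290.6 FPKM in Blank and 314.2 FPKM in shLSD1, stands above all others. The widest gap between the circles is that of the model over SPRY2.

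The PDGF group was read almost wholly from assembled models. PDGFRB, the receptor of mesenchymal and peritubular cells, had 0 reads in its row (ENSGALG00000021313). The model over it had 2302 reads in Blank and 2377 in shLSD1, or 32.1 and 35.2 FPKM (log2 ratio 0.13, 0.05 to 0.21). The model over PDGFRA, its partner receptor, had 34 and 26 reads, or 0.526 and 0.427 FPKM (log2 ratio -0.30, -1.10 to 0.48). The deposited FPKM of the PDGFRB model was thus far above that of the PDGFRA model in both libraries. The PDGFRB model is 8158 bases long over a gene of 3988, and the PDGFRA model 7351 over a gene of 7128. Since the counting of reads shared by a row and a model is not given, the size of the gap between the genes cannot be read. Of 8 peritubular and stromal genes, 6 had at least 20 reads with their models, with the interval above 0 for 3 and below 0 for 3. The shares over protein-coding genes with their models were 13.3% and 17.3%. Below 0 were MYH11, the smooth muscle myosin, with 88 and 54 reads including its model (log2 ratio -0.62, -1.14 to -0.12), LUM (-0.29) and DCN (-0.38). Above 0 were DES with 601 and 726 reads (0.35, 0.20 to 0.51), TCF21 (0.36) and COL3A1 (0.21). Their part in the PDGF values was not tested. The model over PDGFRL, a secreted protein similar in part to the receptors, had 282 and 282 reads (0.08, -0.16 to 0.33).

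Of the PDGF ligands, PDGFB had the highest log2 ratio among members with at least 20 reads. Its row (ENSGALG00000012178, on chromosome 1 between 50582287 and 50594411) was at 0, and the model over it had 121 reads in Blank and 208 in shLSD1. This is a 1.82-fold higher level (log2 ratio 0.86, 0.53 to 1.20). Of all rows with at least 20 reads, 391 (3.24%) had a higher log2 ratio. In mammals PDGFB is made mainly by endothelial cells and platelets. Of 7 endothelial genes, 5 had at least 20 reads with their models, and 2 had an interval above 0, where 13.3% of protein-coding genes with their models did. TIE1 had 42 and 70 reads (0.81, 0.25 to 1.41), and ENG had 16 and 39 with its model (1.34, 0.50 to 2.31). PECAM1 had 89 and 65 reads (-0.37, -0.86 to 0.11), so no difference was detectable for it. Of the 5 endothelial genes, 0 had an interval below 0. Their part in the PDGFB value was not tested.

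The other PDGF ligands differed less. The model over PDGF-A had 1165 and 1271 reads (log2 ratio 0.21, 0.09 to 0.32), while its named row had 32 and 22 (-0.45, -1.31 to 0.37). PDGF-A is known in the mouse for its role in Leydig cell development. The model over PDGFD had 1258 and 1191 reads (log2 ratio 0.00, -0.11 to 0.12). At 24.6 and 24.7 FPKM as deposited, it was the highest ligand row or model of the group. PDGFC had 25 and 29 reads (0.29, -0.53 to 1.13). PDGFB and PDGF-A were thus the ligands with a model interval above 0. The PDGF-A model is 14180 bases long against 943 for the gene and carries no domain line, unlike those over PDGFB and PDGFD.

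MET and EGFR, which bind HGF and the EGF family, lay on opposite sides of 0. MET, listed as c-met (ENSGALG00000009390), had 120 reads in Blank against 169 in shLSD1, a 1.49-fold higher level (log2 ratio 0.57, 0.23 to 0.93). The model over EGFR had 349 and 275 reads (log2 ratio -0.26, -0.49 to -0.03), and its row had 0 and 1. The model over HGF, the ligand of MET, had 107 and 85 reads (-0.25, -0.68 to 0.17), and its row had 1 and 2. HBEGF, an EGF receptor ligand that is not a member, had 130 and 188 reads (0.61, 0.28 to 0.95). In both pairs the gene of the receptor and that of a ligand thus lay on opposite sides of 0, although the interval of HGF included 0.

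The remaining members bind RNA or share letters with the families. IGF2BP1, IGF2BP2 and IGF2BP3 bind the IGF2 transcript and other RNAs and are not part of the signal. IGF2BP3 had 897 and 913 reads (0.11, -0.03 to 0.24). The model over IGF2BP1 had 490 and 540 reads (0.22, 0.04 to 0.40), and that over IGF2BP2 had 187 and 183 (0.05, -0.25 to 0.35). FGFR1OP, a centrosome protein found fused to FGFR1 in leukaemia, had 308 and 208 reads (log2 ratio -0.48, -0.74 to -0.23). FGFR1OP2 had 272 and 208 reads (-0.30, -0.57 to -0.04), SPRYD3 had 854 and 904 (0.16, 0.03 to 0.30), and SPRYD7 had 484 and 440 (-0.05, -0.24 to 0.13). Without these last 4 genes, 7 of 23 member rows had an interval above 0, against 12.9% of all rows with at least 20 reads. An interval below 0 was found for 2, IGF2R and FGF10, against 15.4% of all rows. Leaving the 4 genes out was decided after seeing the data.

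Beyond the members, other genes of these pathways were taken as lists, each gene with the model over it. The transducers between receptor and nucleus included adaptors, RAS, RAF, ERK, PI3 kinase, AKT and JAK genes. Of 41 listed, 35 matched a row and 31 had at least 20 reads. The interval lay above 0 for 1 (3.23%) and below 0 for 6 (19.4%), where the shares over protein-coding genes were 13.3% and 17.3%. The median log2 ratio was -0.06, against -0.02 over those genes. SOCS3 was the only one of the 31 at least 1.5-fold apart with an interval off 0. Of 41 listed co-receptors and related ligands, 35 matched a row and 20 had at least 20 reads. The interval lay above 0 for 3 (15%) and below 0 for 8 (40%), against the same 13.3% and 17.3%, and the median was -0.11. PAPPA, HBEGF and STC2 were the ones at least 1.5-fold apart with an interval off 0.

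ERK target and feedback genes are switched on by the signal, some to carry the response, such as FOS and EGR1, and others to restrain it, such as the DUSP phosphatases. Of 27 listed, 9 matched no row, DUSP6 among them, and 16 of the 18 matched had at least 20 reads with their models. The interval lay above 0 for 4 (25%) and below 0 for 6 (37.5%), against 13.3% and 17.3% of protein-coding genes. The median log2 ratio was -0.29. With the named rows alone, 8 had at least 20 reads, 2 lay above and 2 below 0, and the median was -0.03. DUSP5, a nuclear phosphatase of ERK, had 109 reads in Blank and 26 in shLSD1, all in the model over it, a 3.9-fold lower level (log2 ratio -1.96, -2.66 to -1.36). DUSP7, a cytoplasmic one, had 16 and 4 reads with its model (-1.79, -3.96 to -0.29). DUSP4, another nuclear one, went the other way with 26 and 52 reads (1.07, 0.38 to 1.82). These phosphatases of one family thus lay on both sides of 0.

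FOS, an early transcription factor of the ERK response, had 1607 reads in Blank and 925 in shLSD1 (log2 ratio -0.71, -0.83 to -0.60). IL17RD (Sef), a membrane inhibitor of FGF signals, had 117 and 73 reads (-0.59, -1.04 to -0.16). EGR1, another early gene, had 2541 and 2483 reads (0.05, -0.03 to 0.13), and JUN had 6487 and 6409 (0.07, 0.02 to 0.12). DUSP10, a phosphatase of p38 and JNK, had 519 and 663 reads (0.44, 0.27 to 0.60), and ERRFI1, a feedback inhibitor of EGFR, had 246 and 325 with its model (0.48, 0.24 to 0.73). FOSL2 had 317 and 224 reads (-0.42, -0.67 to -0.17) and CCND1 had 1241 and 997 (-0.23, -0.35 to -0.11), both with their models. EGR1, JUN, DUSP10, ERRFI1, FOSL2 and CCND1 were named after their values were seen. The listed ERK targets therefore lay on both sides of 0, with DUSP5, DUSP7, FOS, FOSL2, CCND1 and IL17RD below it and DUSP4, DUSP10, ERRFI1 and JUN above it beyond counting error.

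**Figure D4:**
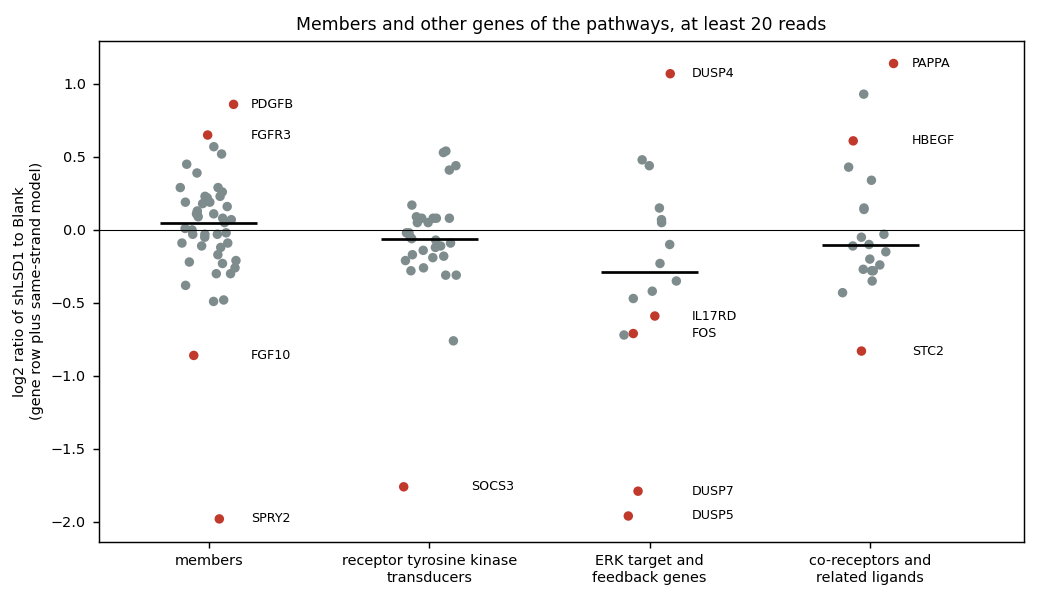
Log2 ratio of shLSD1 to Blank for the gene row plus its same-strand model, for members and 3 lists of other pathway genes with at least 20 reads. Bars are medians and labelled red points are genes named in the text. SPRY2, DUSP5, DUSP7 and SOCS3 lie below -1.5, while the medians lie between -0.29 and 0.05.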

How the data were processed

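The authors deposited whole, unnormalized read counts per gene and FPKM values, which the authors scaled by gene length and a library total 0.646% (Blank) or 0.461% (shLSD1) above the listed sum. The submitters' processing notes name Bowtie 0.12.2 and the mouse builds mm8 and mm9. The files hold chicken Ensembl IDs and 9548 assembled models, and the chicken build, assembler and counter are not given in the sources used here. Another table holds the authors' own comparison (fold changes and p-values) and was not used. Left out were 4 columns of values whose names match none of the sample labels.

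CPM over the listed total, log2 ratios (prior count 0.5) and Clopper-Pearson 95% intervals were computed and tested on simulated data. The simulated reads held counting error only, so this checked the calculation and not the libraries. The prior count moves ratios of low counts towards 0. PCR copies were counted as separate reads, so intervals describe counting error alone. The limit for 0 reads was set at 3 reads. With 1 library per group, no fit across genes was possible. Genes were compared with each other on FPKM, which for a model depends on how reads shared with the gene were counted. The members and lists were chosen with earlier results of these data known. Named were all members, and listed genes at least 1.5-fold apart with an interval off 0 and at least 20 reads, plus KIT. Applying this to gene and model together was decided after the values were seen, and markers named in the text follow no rule. Symbols were matched to the files' names and to RefSeq synonyms (GRCg7b, names and neighbours only). Alternatives tried were DESeq2's size factors, edgeR's TMM, upper-quartile scaling, totals without the 20 most abundant genes, other filters, prior counts and thresholds, FPKM with pseudocounts of 0.1 and 1, and models added. Scaling factors came from R 4.3.3 with DESeq2 1.42.0 and edgeR 4.0.16. Everything else ran in Python 3.11.15 with pandas 2.3.3, scipy 1.17.1 and numpy 2.4.6, and plots were drawn with matplotlib 3.10.9.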

Additional observations from a re-analysis of the deposited data

How the results depend on the processing

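Under the 4 other scalings, or with at least 200 reads, no member row was at least 2-fold higher or lower. Nor was any with a prior count of 5 or with FPKM and either pseudocount. With ratios from -0.86 to 0.65, settings that shift them little or only drop rows could not give one, so this outcome is no test. With no filter on low counts 8 were higher and 5 lower, by construction from rows with few reads, and at a fold threshold of 1.5 the counts were 1 and 1. With the models added, or with the models alone (a setting chosen after seeing the data), 1 was lower. The interval lay above 0 for 8 rows and below 0 for 4. These counts were 14 and 8 with the models added and 5 and 2 with a 99% interval. The share of all rows at the 99% level was not computed. Without the SPRYD and FGFR1OP genes, a setting chosen after seeing the data, 2 lay below 0. The median of 0.01 was 0.08 with no filter, 0.16 with at least 200 reads, 0.05 with the models added, 0.06 with the models alone and 0.08 without the SPRYD and FGFR1OP genes, since each changes which genes enter. Of 51 single log2 ratios, all stayed inside their interval in 259 recomputations, and scaling moved them by at most 0.026. Each scaling shifted every ratio by the same small amount, so for the scalings this outcome was fixed in advance and is no test. With the models added, the ratio changed sign for PDGF-A, from -0.45 to 0.19, and for IRS2, from -0.17 to 0.11. The upper-quartile scaling brought 0 into the intervals of 2 models, those over LIFR and gp130. Depth limits the 25 rows with 1 to 19 reads, for which no direction is read. No paired analysis was possible because Blank and shLSD1 have only 1 library each.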
